A study of Mus musculus with 8 samples.

Results

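Accessible chromatin at the Hox genes of the 4 Hox clusters was followed in mouse spermatogonia through the first 120 h after retinoic acid (RA). The list held 38 genes, 10 of HoxA, 10 of HoxB, 9 of HoxC and 9 of HoxD, and did not hold every gene of the clusters. A peak of the deposited peak table belonged to the list where the table assigned a listed gene to it by its exact symbol. This gave 391 of the 328733 peaks of the series. Merging of peaks that shared at least 1 bp, across the 8 libraries, turned the 391 peaks into 115 of 87144 regions. All 38 genes had at least 1 peak. The genes lie close together, so 75 of the 115 regions were assigned to 2 or more Hox genes and the genes are not independent of each other.

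Accessibility was measured by ATAC-seq, in which a transposase cuts and tags open DNA. The cells were testis germ cells sorted for the fluorescence of a PIWIL2-eGFP transgene, which marks germ cells and which all groups carried. All mice received WIN 18,446, a blocker of RA synthesis, for 7 days. They were either collected without RA (0 h) or injected with 200 µg RA at 9 dpp and collected 18, 48 or 120 h later, with 2 libraries at each timepoint and the testes of 1 mouse for each library. In the study these timepoints stand for undifferentiated type A, A1/A2, A3 and B spermatogonia, and no mice without WIN 18,446 or with vehicle were among the samples used here, so the effect of RA and the passing of time cannot be told apart. The labels give a strain derived from C57BL/6 x 129s4/SvJae, whereas the methods name SJL as the second parent.

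Hox genes encode homeodomain transcription factors that give cells their position along the body axis. Each cluster is an ordered array, and the order of the genes on the chromosome matches the order in which they are used in the embryo, from genes such as Hoxb1 at the anterior end to the paralogues numbered 13 at the posterior end. RA is a classic inducer of the anterior genes in embryonic and cultured cells, through RA receptors that bind paired copies of a short motif. Where Hox genes are silent, their CpG islands are usually held by Polycomb complexes. The germ line has no body position to encode, and no transcript levels were analysed here.

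The 8 libraries differed in signal, and this touches every value below. The deposited value is tag coverage at the summit of a peak after the authors had brought all libraries to equal tag numbers, and is called the summit value. The number of peaks was 72215 and 69089 at 0 h and between 24643 and 39551 in the 6 later libraries. Over the 15536 regions called in every library, the median log2 summit value was 7.81 and 8.08 at 0 h and between 6.43 and 7.38 later. The lowest summit value of a library was 24 or 25, so a region without a peak lay below the calling limit and was not necessarily closed. All 5 germ cell genes examined (Piwil2, Ddx4, Dazl, Mael and Tdrd9) had a peak at their start in all 8 libraries, with summed values of 2019 and 2476 at 0 h and 789 to 1843 later. None of 4 Leydig cell genes had one in any library. The 5 Sertoli cell genes had a peak at their start in 5 of 5 cases in both 0 h libraries and in 3 or 4 cases later, with summed values of 562 and 742 at 0 h and 152 to 292 later. Of 3 peritubular genes, 3 had one in each 0 h library and 1 or 2 later, with summed values of 406 and 461 at 0 h and 86 to 240 later. Of 3 macrophage genes, 2 and 1 had one at 0 h and none later. Of 3 endothelial genes, only Tek had one, in both 0 h libraries and in 18 h replicate 2. The part of cells of these other types in the Hox peaks of 0 h was not tested.

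The sequences of a few regions are given first. The first pair are the only Hox regions in which the 300 bp around the summit held a DR5 motif, a direct repeat of 2 hexamers 5 bases apart of the kind that RA receptors bind. A hexamer was AGGTCA, or the variant AGTTCA, or the variant GGGTCA, or the variant GGTTCA, in any combination and on both strands. Both regions were called at 0 h only. Capitals mark the 2 hexamers, and the mm10 plus strand is shown 100 bases to each side of the summit.
Hoxa2 side of the HoxA cluster, chr6:52153341-52153540: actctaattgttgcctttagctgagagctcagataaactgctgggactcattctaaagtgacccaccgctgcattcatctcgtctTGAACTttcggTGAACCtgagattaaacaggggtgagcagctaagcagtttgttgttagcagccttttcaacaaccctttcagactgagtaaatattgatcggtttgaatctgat
Hoxa3 intron, chr6:52175373-52175572: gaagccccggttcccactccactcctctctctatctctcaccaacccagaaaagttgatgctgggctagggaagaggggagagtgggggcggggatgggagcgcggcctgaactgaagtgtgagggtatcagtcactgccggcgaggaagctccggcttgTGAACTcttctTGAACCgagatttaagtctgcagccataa

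Read on the minus strand, the first repeat is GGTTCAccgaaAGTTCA at chr6:52153426-52153442 and the second is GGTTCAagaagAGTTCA at chr6:52175533-52175549. The second set shows Hox regions that differed in behaviour over time. It holds the HoxB region with the highest mean over the libraries that had a peak there, which was called at 0 h only, the start of Hoxc13, the highest Hox region of all, a Hoxd11 intron region that was called at 0 and 120 h only, and a region between Hoxa11 and Hoxa13 that was called at 120 h only. Capitals mark CG dinucleotides, the bases that make up CpG islands.
Hoxb13 upstream, chr11:96190237-96190436: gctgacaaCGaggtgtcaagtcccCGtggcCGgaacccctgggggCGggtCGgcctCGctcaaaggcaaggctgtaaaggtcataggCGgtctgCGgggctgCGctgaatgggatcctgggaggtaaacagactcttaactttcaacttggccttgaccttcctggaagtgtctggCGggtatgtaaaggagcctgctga
Hoxc13 start, chr15:102920765-102920964: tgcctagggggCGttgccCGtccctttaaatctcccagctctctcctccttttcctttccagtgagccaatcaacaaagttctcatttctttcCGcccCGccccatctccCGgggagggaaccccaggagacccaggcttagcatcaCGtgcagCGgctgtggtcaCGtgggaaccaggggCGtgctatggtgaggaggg
Hoxd11 intron, chr2:74683453-74683652: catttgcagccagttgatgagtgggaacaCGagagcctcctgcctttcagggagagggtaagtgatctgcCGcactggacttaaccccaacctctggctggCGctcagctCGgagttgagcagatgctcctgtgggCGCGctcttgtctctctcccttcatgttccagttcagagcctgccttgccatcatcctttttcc
Between Hoxa11 and Hoxa13, chr6:52252957-52253156: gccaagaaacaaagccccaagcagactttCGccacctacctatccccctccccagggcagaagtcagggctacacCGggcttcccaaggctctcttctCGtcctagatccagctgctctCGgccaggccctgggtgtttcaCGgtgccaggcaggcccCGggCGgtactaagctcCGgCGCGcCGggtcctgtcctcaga

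These 200 bases held 10, 9, 6 and 11 CG dinucleotides in the order shown. Hox regions were rich in them as a group. The median GC content was 60.1% in the 115 Hox regions and 51.6% in all regions, and the median ratio of observed to expected CG was 0.639 against 0.322. A CpG island of the deposited table overlapped 65 of the 115 Hox regions (56.5%) and 18.1% of all regions. Hox regions were of ordinary width, with medians of 391 bp and, in all regions, 424 bp. In GENCODE vM21, the summit lay in a coding exon in 26 regions, in a UTR in 9, in a noncoding exon in 11, in an intron in 43 and between genes in 26. A start of any gene lay within 1000 bp in 39.1% of Hox regions and in 19.0% of all regions. A DR5 motif was found in 2 Hox regions (1.74%) and in 123 of all regions (0.141%). A DR2 motif, with 2 bases between the hexamers, was found in 0 Hox regions and in 0.254% of all regions, and its absence says only that these letters were not in these windows.

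**Figure D1:**
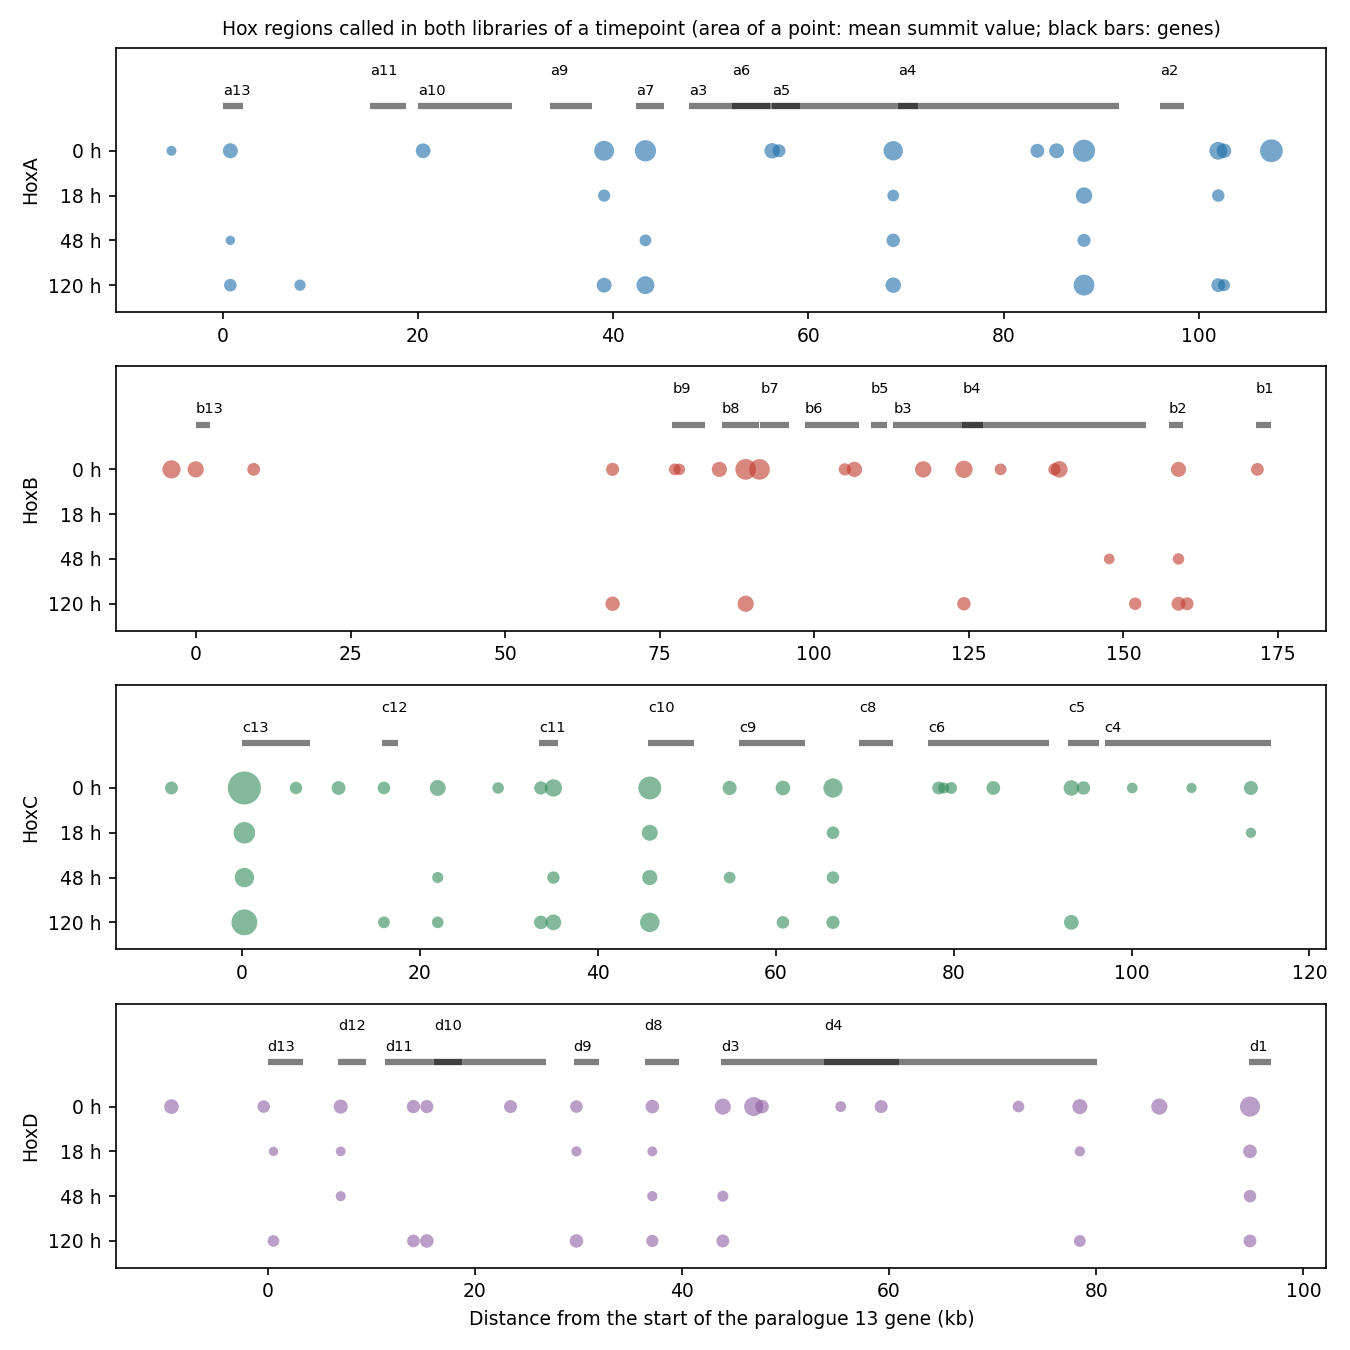
Hox regions with a peak in both libraries of a timepoint, plotted by distance in kb from the start of the paralogue 13 gene of each cluster, one row of points per time post-RA. The area of a point is the mean summit value, bars are genes, and the HoxB row at 18 h is empty.

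The number of Hox peaks was highest before RA. The 2 libraries at 0 h had 89 and 90 Hox peaks, those at 18 h had 21 and 31, those at 48 h had 27 and 30, and those at 120 h had 66 and 37. Both 0 h libraries were above every later library. The mean was 89.5 ± 0.707 (SD, n = 2) at 0 h, 26.0 ± 7.07 at 18 h, then 28.5 ± 2.12 at 48 h and 51.5 ± 20.5 at 120 h. The difference of 54.2 peaks between 0 h and the 6 later libraries had p = 0.0714 in an exact permutation test (two-sided), the smallest value that 2 against 6 libraries can give.

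The clusters shared this fall to different degrees. At 0 h HoxB had 26 and 22 peaks, followed by 3 and 6 at 18 h, then 6 and 6 at 48 h, and 18 and 7 at 120 h. HoxC had 25 and 24 at 0 h, 5 and 7 at 18 h, then 9 and 10 at 48 h, and 16 and 11 at 120 h. HoxD had 21 and 24 at 0 h, 8 and 10 at 18 h, then 6 and 9 at 48 h, and 17 and 11 at 120 h. HoxA had 17 and 20 at 0 h, 5 and 8 at 18 h, then 6 and 5 at 48 h, and 15 and 8 at 120 h. In each cluster both 0 h libraries were above all later ones, and at 120 h replicate 1 had more peaks than replicate 2.

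All peaks of a library fell in number after RA, and the share that lay at Hox genes had another course. Hox peaks were 0.123% and 0.130% of all peaks at 0 h, 0.0727% and 0.0901% at 18 h, then 0.104% and 0.0883% at 48 h, and 0.167% and 0.150% at 120 h. Both libraries at 120 h were above the other 6, although replicate 2 had the fewest peaks of all 8. The share differed little between 0 h and all later libraries (0.0147 percentage points higher at 0 h, exact permutation p = 0.714). It was 0.0571 percentage points higher at 120 h than in the other 6 libraries (exact permutation p = 0.0714, the smallest possible), a comparison chosen after the values were seen. When each library was cut to its 24643 highest peaks, Hox genes were left with 16 and 16 at 0 h, 11 and 16 at 18 h, then 24 and 16 at 48 h, and 42 and 37 at 120 h, so that the excess at 0 h was no longer seen and both 120 h libraries stood highest. With only peaks of at least 50, the share at 120 h was 0.0668 percentage points higher than in the others, with exact permutation p = 0.214.

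**Figure D2:**
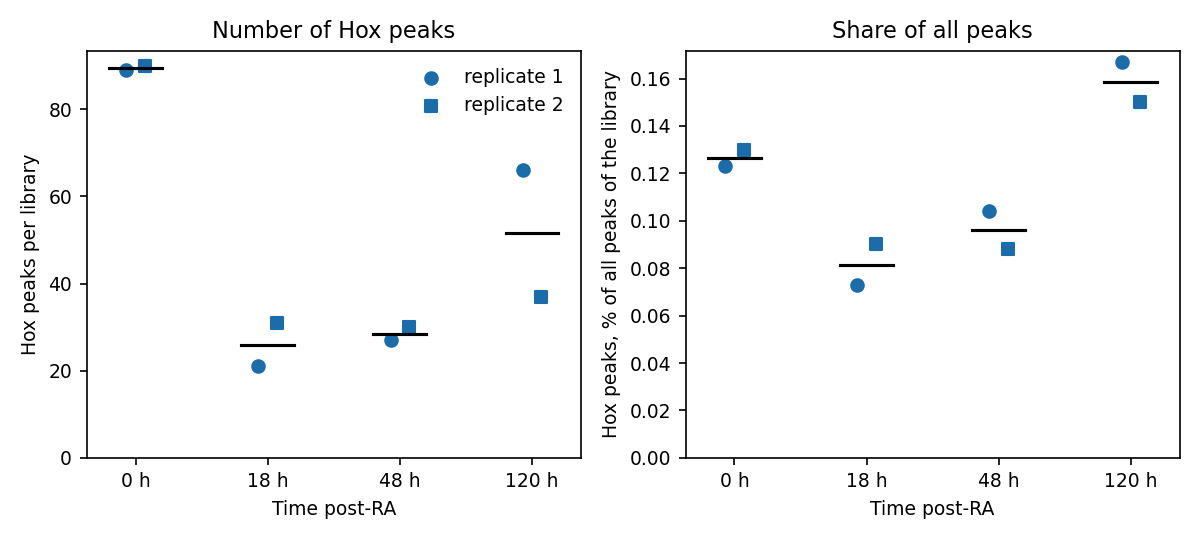
Hox peaks per library (left) and as a percentage of all peaks of the library (right) by time post-RA. Points are libraries, lines are means of 2 libraries. Numbers are 89 and 90 at 0 h against 21 to 66 later, and the 2 libraries at 120 h have the highest shares, 0.167% and 0.150%.

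A region was counted at a timepoint when both of its libraries had a peak there. Of the 115 Hox regions, 76 were counted at 1 timepoint or more and 39 at none. Of the 76, 71 were counted at 0 h, where 96.3% of all regions counted were. At 0 h only there were 41 (53.9% of the 76, against 49.8% of all 61310 regions counted). At all 4 timepoints there were 7 Hox regions (9.21%, against 25.3%). At 0 and 120 h and not between there were 10 (13.2%, against 3.77%). A further 6 were counted at 0, 48 and 120 h, 4 at 0, 18 and 120 h, 3 at 120 h only, and 5 in other combinations. Of the 41 regions of 0 h alone, 17 were without a peak in all 6 later libraries and 24 had one in 1 to 3 of the 6. Without 120 h replicate 2, 24 regions were counted at 0 h only and 27 at 0 and 120 h only. Without 18 h replicate 1, 11 were counted at all 4 timepoints.

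Of Hox regions at 0 h, a smaller share was counted again at 18 and 48 h than of all regions. At 120 h the shares were close. Split by CpG island alone, as given below, the Hox shares were also under those of all regions at 120 h. Of the 71 Hox regions at 0 h, 13 (18.3%) were also counted at 18 h, where the background over all 59063 regions at 0 h was 39.9%. At 48 h, 15 (21.1%) were counted, against 36.8%. At 120 h, 27 (38%) were counted, against 34.3%. In all, 41 of the 71 were counted at no later timepoint, where the background was 51.7%, and 7 at all 4, where it was 26.3%. The 10 Hox regions that were counted again at 120 h without a call at 18 or 48 h were 10 of 71, against a background of 3.92%. Counted in single libraries, the shares were 22.5% and 38% in the 18 h libraries (43.7% and 52.6% of all regions), 31.0% and 35.2% in the 48 h libraries (40.4% and 50%), and 64.8% and 42.3% in the 120 h libraries (53.7% and 35.3%). Hox regions were thus below all regions in the 4 libraries at 18 and 48 h and above them in both at 120 h. Hox regions at 0 h were somewhat low, with a median of 71 for the lower of the 2 libraries against 79 in all regions.

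The comparison was repeated by CpG island, a split made after the data were seen. Among regions at 0 h with a CpG island, 12 of 44 Hox regions (27.3%) were counted at 18 h, against 70.5% of all such regions. At 48 h these were 13 (29.5%) against 73.1%, and at 120 h 24 (54.5%) against 76.3%. Among CpG island regions whose lower value at 0 h was 50 to 99, the Hox regions counted were 5 of 31 (16.1%) against 26.0% at 18 h, 7 (22.6%) against 30.9% at 48 h and 14 (45.2%) against 41.4% at 120 h. Of the 9 CpG island Hox regions with a lower value of 100 to 199, 6 were counted at 18 h (66.7%, against 76.7%), 5 at 48 h (55.6%, against 81.2%) and 9 at 120 h (100%, against 82.3%). Away from CpG islands only 1 of 27 Hox regions was counted at 18 h, 2 at 48 h and 3 at 120 h (3.70%, 7.41% and 11.1%, against 30.3%, 25.3% and 21.1%). Of these, 7 had a lower value of 100 to 199, and 1 of the 7 was counted at each time (14.3%, against 66.9%, 53.4% and 40%). A further 14 had a lower value of 50 to 99, and 0, 1 and 2 of them were counted (0%, 7.14% and 14.3%, against 17.7%, 13.7% and 12.4%). When each library was limited to its 24643 highest peaks, 7 of 15 Hox regions at 0 h were counted at 18 h, 7 at 48 h and 11 at 120 h (46.7%, 46.7% and 73.3%, against 80.3%, 76.4% and 68.8%). This limit kept only peaks of at least 105 and 115 at 0 h and lower ones in all later libraries. These shares are descriptions, since neighbouring Hox regions share a cluster.

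**Figure D3:**
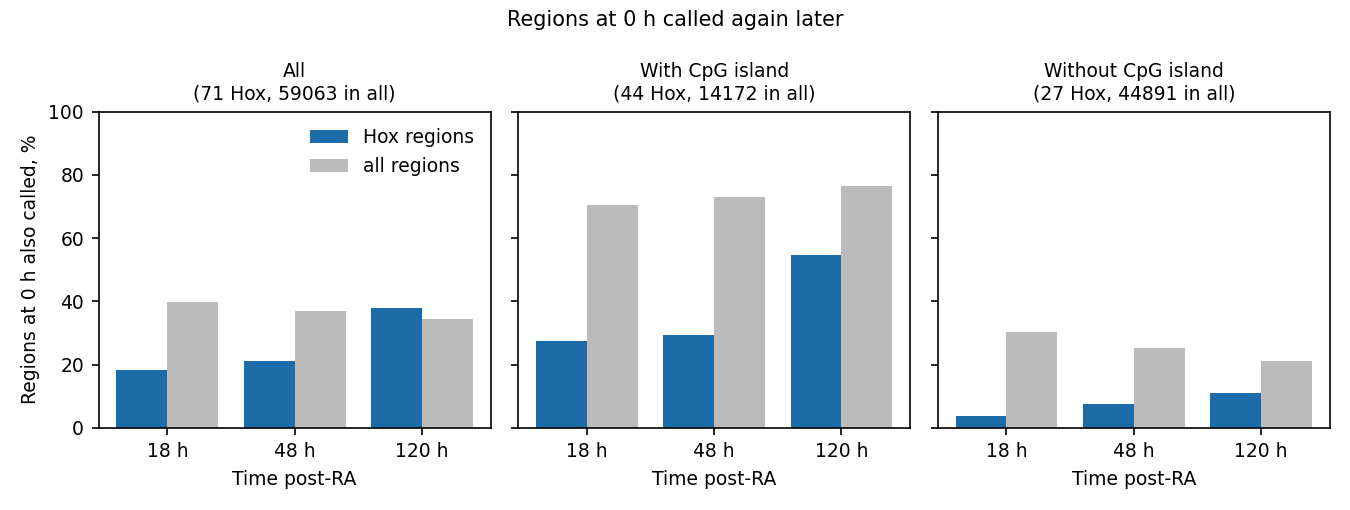
Percentage of regions at 0 h that were also counted at 18, 48 and 120 h, for Hox regions (blue) and all regions (grey), over all regions and split by CpG island. Hox regions were below all regions at 18 and 48 h in each panel. At 120 h the 2 bars over all regions were 38% and 34.3%. They were 54.5% and 76.3% with a CpG island, and 11.1% and 21.1% without.

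The clusters differed in what was kept. HoxB had 18 regions at 0 h, of which 0 were counted at 18 h, 1 at 48 h and 4 at 120 h. HoxA had 14, of which 4, 4 and 7 were counted at these times. HoxC had 22, of which 4, 6 and 9 were counted. HoxD had 17, of which 5, 4 and 7 were counted. No HoxB region had a peak in all 8 libraries, whereas HoxA and HoxD had 2 each and HoxC had 3. The difference between clusters was not tested.

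The highest of the regions counted at 0 h only was the first of the DR5 regions printed above, on the far side of Hoxa2 (chr6:52153210-52153656), between genes, with its summit 11391 bp downstream of the Hoxa2 start. Its summit value was 235 and 165 at 0 h, and no peak was called in any of the 6 later libraries. The lower of these values was the highest among the 41 Hox regions counted at 0 h only. The region with the other DR5 motif, in an intron of Hoxa3 (chr6:52175179-52175700), had 93 and 79 at 0 h and a peak of 63 in 120 h replicate 1 only. Hoxa2 patterns the hindbrain and neural crest, and Hoxa3 the pharyngeal organs.

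Hoxb13, a posterior gene known for its role in the prostate and tail, lay apart from the other HoxB genes and lost all its calls. Its start (chr11:96194104-96194450) had 103 and 100 at 0 h and no peak later, and had the highest mean of the HoxB starts over the libraries with a peak. The region upstream of it (chr11:96190142-96190574), with its summit at -4025 bp from the start, had 118 and 138 at 0 h, and again none later. A mean over libraries with a peak leaves out the libraries without one, so it favours regions called at 0 h alone. Another region 9447 bp downstream of the start had 65 and 61 at 0 h and none later. Single later peaks at Hoxb13, 1 each in 18 h replicate 2 and 48 h replicate 1, lay in a region further upstream with values of 36 and 33.

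Some other regions counted at 0 h only kept a lower peak in single later libraries. Upstream of Hoxb7 (chr11:96285227-96285688), the values were 152 and 175 at 0 h, above the Hoxb13 regions, then 50 in 18 h replicate 1 and 94 in 120 h replicate 1. In an intron of Hoxd3 (chr2:74714971-74715316), they were 108 and 171 at 0 h, 46 in 18 h replicate 1, 42 in 48 h replicate 2 and 41 in 120 h replicate 2. Upstream of Hoxb4 (chr11:96311564-96312313), they were 101 and 105 at 0 h, 39 in 48 h replicate 2, then 49 in 120 h replicate 1. The HoxD region away from a start with the highest such mean (chr2:74754151-74754488), in an intron of the antisense transcript Haglr, had 90 and 111 at 0 h and no later peak. In each of these regions both 0 h values were above all later ones.

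The 10 regions counted at 0 and 120 h only lay in all 4 clusters, with 1 in HoxA, 3 in HoxB, 4 in HoxC and 2 in HoxD. In HoxB, a coding exon region of Hoxb8 (chr11:96283029-96283421) had 131 and 199 at 0 h, 72 in 48 h replicate 2, and 145 and 57 at 120 h. The Hoxc5 start (chr15:103014187-103014537) had 96 and 89 at 0 h, no peak at 18 or 48 h, and 100 and 66 at 120 h. In Hoxd11, a coding exon region (chr2:74682008-74682578) had 65 and 72 at 0 h and 63 and 61 at 120 h, and the intron region printed above had 57 and 75 at 0 h and 77 and 65 at 120 h, both without a peak between. The Hoxc11 start had 72 and 65 at 0 h, none between, and 95 and 47 at 120 h. Other regions were also counted at 48 h. The HoxC region away from a start with the highest mean over the libraries with a peak, in the intron of Hoxc11 (chr15:102955778-102956491), had 99 and 132 at 0 h, 57 in 1 library at 18 h, then 50 and 69 at 48 h, and 130 and 59 at 120 h. Among HoxA starts, that with the highest such mean, at Hoxa7 (chr6:52217299-52217845), had 164 and 183 at 0 h, no peak at 18 h, then 52 and 55 at 48 h, and 177 and 69 at 120 h. Values of 0 h and 120 h overlapped in all of these regions but the Hoxd11 exon, and replicate 1 was the higher library at 120 h in each of these regions.

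Only 2 Hox regions were counted at 18, 48 or 120 h without a peak in either 0 h library. One lay in a coding exon of Hoxd13, 394 bp from its start (chr2:74668534-74669026), a gene of the digits and the genital bud, with 38 and 30 at 18 h, 34 in 48 h replicate 2, and 55 and 49 at 120 h. The other lay between Hoxa11 and Hoxa13 (chr6:52252725-52253205), with 34 in 18 h replicate 1 and 53 and 46 at 120 h. All their values lay between 30 and 55, near the calling limit. The Hoxd13 region lay beside a separate region at the same start (chr2:74667231-74668441), which had 45 and 76 at 0 h. The Hoxd13 start thus had a peak before RA.

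The 7 Hox regions with a peak in all 8 libraries could be compared by height. The start of Hoxc13 (chr15:102920570-102922210), a gene of hair and nail formation, was the highest, with 379 and 461 at 0 h, 130 and 226 at 18 h, then 123 and 166 at 48 h, and 316 and 197 at 120 h. Hoxc10, at its start (chr15:102966353-102967582) had 168 and 235, 91 and 105, 83 and 95, and 181 and 110 at these timepoints. The start of Hoxa4 (chr6:52191757-52192610) had 132 and 157, 38 and 69, 72 and 68, and 108 and 76. At these 3 starts both 0 h libraries were above those at 18 and 48 h, and at Hoxc13 and Hoxa4 also above those at 120 h.

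The start of Hoxd1 (chr2:74762640-74763503), the most anterior HoxD gene, had 131 and 178 at 0 h, 76 and 68 at 18 h, then 53 and 68 at 48 h, and 73 and 55 at 120 h. Upstream of Hoxc8, a region (chr15:102987299-102987827) had 126 and 158, 60 and 63, 64 and 57, and 80 and 55. The start of Hoxd8 (chr2:74704645-74706079) had 68 and 74, 39 and 37, 43 and 38, and 64 and 51. In these 3 regions both 0 h values were above all 6 later ones.

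The last of the 7, assigned to Hoxa2 and Hoxa3, lay inside Hoxa3 in a UTR of a Hoxa3 transcript (chr6:52172374-52172897). It is called the Hoxa3 UTR region below. It had 125 and 255 at 0 h, 85 and 122 at 18 h, then 51 and 81 at 48 h, and 194 and 139 at 120 h. Here the 120 h values lay between those of 0 h.

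On the deposited scale, all 7 regions were lower at 18 h than at 0 h and all 7 at 48 h, by limma with Benjamini-Hochberg adjustment over all 15536 regions. At 18 h the limma log2 changes ran from -1.49 (Hoxa4 start) to -0.81 (Hoxa3 UTR region), with adjusted p from 0.000304 to 0.0326. At 48 h they ran from -1.55 (Hoxc13 start) to -0.81 (Hoxd8 start), with adjusted p from 0.000104 to 0.0316. The SE was 0.37 for every region. The same call was made in 92.3% of all regions at 18 h and in 93.3% at 48 h. The Hox median of -1.09 stood beside -1.23 for all regions at 18 h, and -1.22 beside -1.36 at 48 h. Both Hox medians were nearer to 0 than those of all regions. After each library was centred on its median, 0 of the 7 passed by limma in either direction at 18 h, where 1.47% of all regions did, and 0 at 48 h, where 4.77% did. At an unadjusted p under 0.05 these were 0 and 1 of the 7. Without 0 h replicate 2, the calls on the deposited scale fell to 2 of 7 at 18 h and 3 of 7 at 48 h, and without 18 h replicate 1 to 3 of 7 at 18 h.

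At 120 h, 2 of the 7 were lower than at 0 h, against 44.8% of all regions. These were the Hoxd1 start (log2 change -1.27, adjusted p = 0.00256 by limma) and the region upstream of Hoxc8 (-1.09, adjusted p = 0.0102). The other 5 had log2 changes of -0.74 to -0.12 and did not pass. From 48 h to 120 h, 1 of the 7 rose, the Hoxa3 UTR region (1.35 ± 0.37 SE, adjusted p = 0.00854), where 23.7% of all regions rose. Between 18 and 48 h, 0 of the 7 passed by limma and 0 had an unadjusted p under 0.05, where 0.00644% of all regions passed. Centring left 0 of the 7 lower at 120 h than at 0 h, against 15.8% of all regions, 1 higher at 120 h than at 0 h, against 23.0% of all regions, and 1 higher than at 48 h, against 9.47%. Both times this was the Hoxa3 UTR region, with log2 changes of 0.77 ± 0.26 (adjusted p = 0.0301) and 0.85 ± 0.26 (adjusted p = 0.0401). On the deposited scale its log2 change from 0 h to 120 h was -0.12, with adjusted p = 0.808 by limma, so the sign depended on the scaling. On the deposited scale, 0 of the 7 were lower at 120 h than at 0 h without 0 h replicate 2, 1 without 120 h replicate 2 and 5 without 120 h replicate 1. From 48 h to 120 h, 0 rose without 48 h replicate 1 or 120 h replicate 1, and 3 without 120 h replicate 2.

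**Figure D4:**
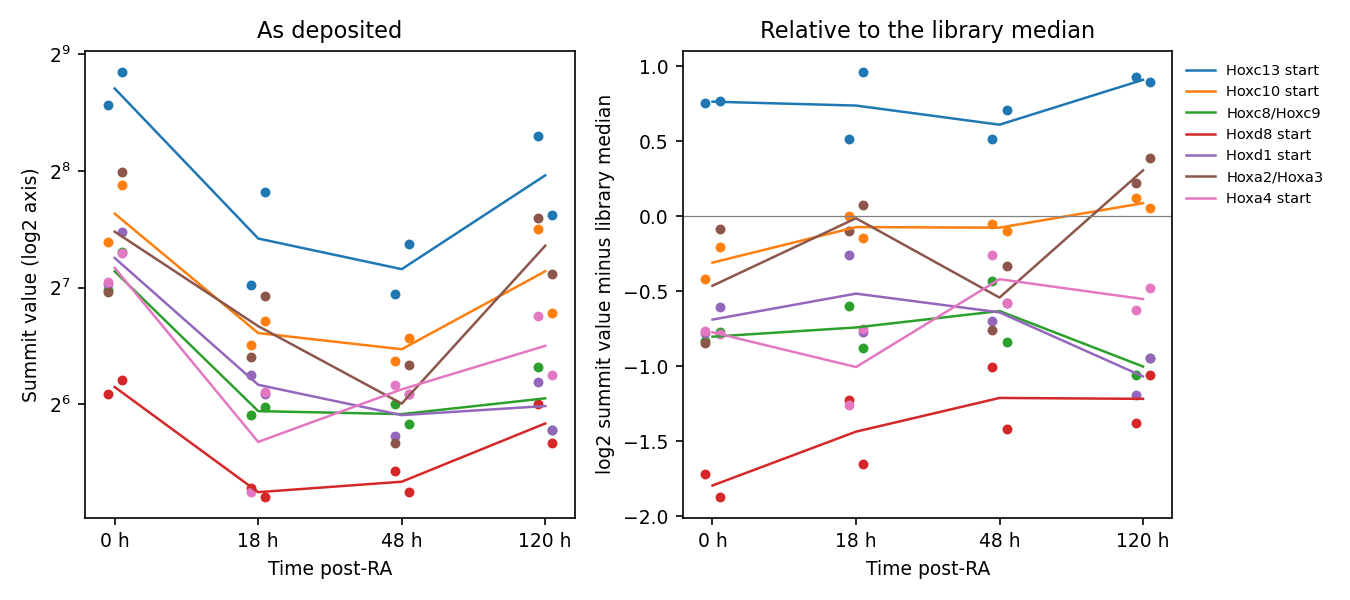
Summit values of the 7 Hox regions with a peak in all 8 libraries by time post-RA, as deposited on a log2 axis (left) and as log2 value minus the median log2 value of the library (right). Points are libraries and lines join the means of the log2 values. On the left all 7 lines fall from 0 h to 18 h, and on the right the Hoxa2/Hoxa3 line has its highest point at 120 h.

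More Hox regions could be compared between 0 h and 120 h alone, where 27 had a peak in all 4 libraries. This wider set was chosen after the data were seen. It holds 27 of the 71 regions at 0 h, and a region that fell below the calling limit at 120 h could not enter it, so the counts of lower and higher regions are not those of all Hox regions. On the deposited scale 2 of the 27 were lower, against 35.9% of 20285 regions, and the median log2 change was -0.49 against -0.73. After centring 8 of the 27 were higher, against 20%, 0 were lower, against 9.93%, and the median was 0.45 against 0.21. With missing heights set to the lowest summit value of the library and the same centring, 5 of 76 Hox regions were lower and 8 higher. Of all 61310 regions in that fit, 9427 were lower and 3709 higher. The median was 0.03 in Hox regions against -0.22 in all. Among the 8 of the 27 that were higher after centring, the largest changes were at the Hoxd9 start (1.16 ± 0.27 SE, adjusted p = 0.00427 by limma) and upstream of Hoxb9 (1.14 ± 0.26, adjusted p = 0.00381). The rest were both Hoxd11 regions (1.06 and 0.80), the Hoxc11 start (0.91), the Hoxa3 UTR region (0.82), and the starts of Hoxc5 (0.76) and Hoxc12 (0.72). At the Hoxd9 start the values were 57 and 64 at 0 h and 75 and 66 at 120 h, and upstream of Hoxb9 they were 62 and 69 at 0 h and 105 and 54 at 120 h.

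**Figure D5:**
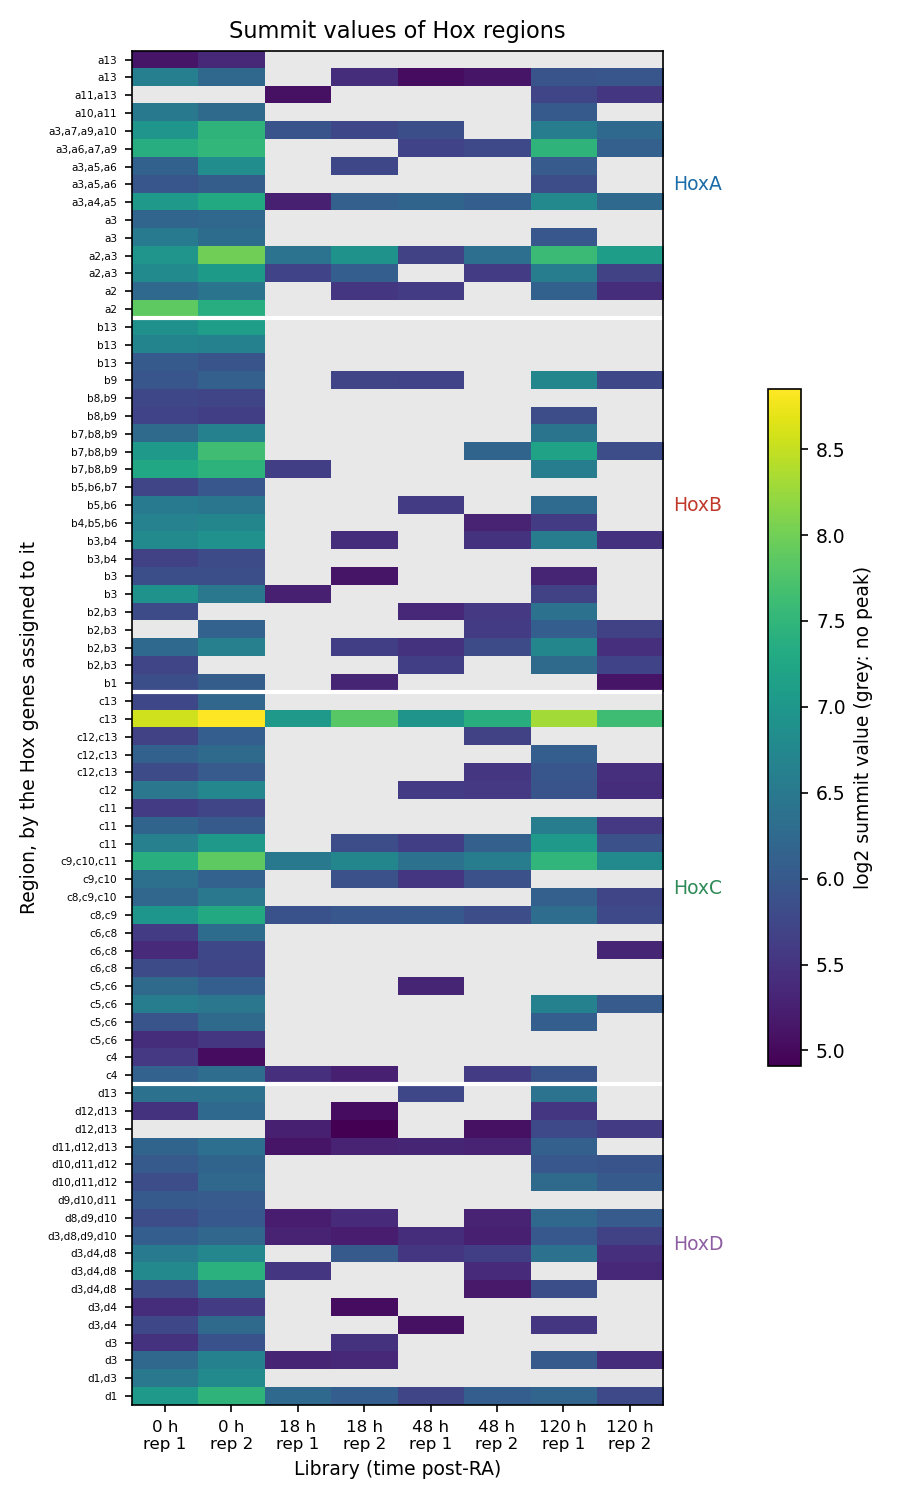
Log2 summit value in each of the 8 libraries (columns) for the 76 Hox regions counted at 1 timepoint or more (rows, from the paralogue 13 side of each cluster), with grey where a library had no peak. The 0 h columns are filled for 71 regions in both libraries, and the single brightest row is the Hoxc13 start.

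By gene, 24 of the 38 Hox genes (63.2%) had an assigned peak in both libraries of all 4 timepoints, against a background of 72.8% of 20673 genes. A further 6 genes (15.8%) had one at 0 and 120 h only, against 2.69%. These were Hoxa11, Hoxb4, Hoxb7, Hoxb8, Hoxc5 and Hoxc6. There were 3 such genes without 18 h replicate 2 or without 48 h replicate 1. The genes with calls at 0 h only were Hoxb1, Hoxb6 and Hoxb13 (7.89%, against 12.9%), all of HoxB. Without 18 h replicate 1 or 48 h replicate 2, 1 gene was left in this class, and with peaks inside the gene or at its start alone there were 8. Hoxb1 specifies a segment of the hindbrain and is a textbook RA target, and its start had 58 and 67 at 0 h, 40 in 18 h replicate 2, then 35 in 120 h replicate 2. Hoxa6 and Hoxc12 lacked a call at 18 h, Hoxa10 at 48 h, Hoxb5 at 18 and 120 h, and Hoxc4 at 48 and 120 h. None of the 38 genes was without a call at every timepoint. In 18 of the 38 (47.4%), each 0 h library had more peaks than any later one, against 38.4% of all genes. Hoxd3 had the most, with 11 and 12 peaks at 0 h, 4 and 5 at 18 h, then 3 and 4 at 48 h, and 8 and 5 at 120 h.

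Gene starts followed the regions. A peak within 1000 bp of the start that the table uses was present in both libraries for 24 of the 38 genes at 0 h, 9 at 18 h, then 8 at 48 h and 13 at 120 h (63.2%, 23.7%, 21.1% and 34.2%). Of the 20673 genes with a call at any timepoint, 71.7%, 53.8%, 54.7% and 55.8% had such a peak at these times. Hoxa4, Hoxc10, Hoxc13, Hoxd1 and Hoxd8 had one at all 4 timepoints. For 13 genes no library had a peak at that start. Among them was Hoxa3, whose start in the table belongs to a long transcript and lies 37595 bp from the intron region named above, so for such genes a shorter transcript can start at a peak that was not counted here.

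Genes that act with Hox proteins or set their expression were examined at their starts. Of 9 partner genes, which encode the Pbx, Meis and Pknox homeodomain cofactors, 3 had a peak at their start in all 8 libraries and none lacked one in all. In the fit over all regions, 4 regions at partner starts could be tested. For 1 of them, Pbx3, the start itself had a peak only in replicate 2 at 0, 48 and 120 h. The heights of its region in the other libraries came from summits further from the start. All 4 were lower at 18 and 48 h than at 0 h, where 92.3% and 93.3% of all regions were, and 1 at 120 h, where 44.8% were. After centring 0 passed at 18 or 48 h (1.47% and 4.77% of all regions in either direction). At 120 h 2 were higher, Pbx3 among them, and 1 lower (23.0% and 15.8%). With so few starts these counts show nothing particular to the partners. Of the 3 Cdx genes, inducers of posterior Hox genes, Cdx1 (51 and 66) and Cdx4 (50 and 44) had a peak at their start at 0 h only. Cdx2 had 96 and 143 at 0 h and 46 to 84 later, without a peak in 120 h replicate 2. Among the RA receptors, Rara had 307 and 376 at 0 h and 78 to 196 later, Rarb had 138 and 205 at 0 h and 41 to 101 later, and Rarg had 84 and 49 at 0 h and no peak at its start later.

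Of 12 Polycomb genes, 10 had a peak at the start in all 8 libraries and 9 could be tested in the fit over all regions. Relative to 0 h, all 9 were lower at 18 and 48 h (92.3% and 93.3% of all regions) and 1 at 120 h (44.8%). After centring 0 of 9 passed in either direction at 18 or 48 h, and at 120 h 4 were higher and 1 lower, beside 23.0% and 15.8% of all regions. Suz12, a core subunit of the complex that methylates H3K27, had 445 and 527 at 0 h, 164 and 278 at 18 h, then 209 and 222 at 48 h, and 692 and 467 at 120 h. Cbx7, a reader of that mark, had 225 and 266 at 0 h and 109 and 63 at 120 h. Of 5 Trithorax genes, which keep Hox genes active, Men1, Ash2l and Wdr5 matched the table by symbol and had a peak at the start in all 8 libraries. All 3 were lower at 18 and 48 h, as were 92.3% and 93.3% of all regions, 2 were lower at 120 h, as were 44.8%, and 0 passed after centring.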

How the data were processed

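Per the labels, sorted germ cells of 4 timepoints were assayed by ATAC-seq, with 2 libraries each. The authors aligned reads to mm10 (BWA 0.7.12 in the submitters' processing notes), equalised the libraries by tag number and called peaks per library with MACS2 2.1.0. The deposited values are signal: tag coverage at the summit of each peak and its mean over the peak. Read counts were not used here, so the depth behind a peak is unknown and no counting interval could be given. Genes within 10 kb were those the authors assigned. The labels name no litters or batches, so p-values measure the spread between libraries. On the deposited scale limma used a spread shared over regions, with an SE of 0.37 at each Hox region fitted. Such a spread does not measure how far the 2 libraries of a group differ at a single region. Shifts common to a whole library, such as medians of 7.38 and 6.73 at 120 h, touch all regions together.

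Peaks overlapping by at least 1 bp were merged. Heights (log2 of the highest summit value, no pseudocount) were fitted in limma 3.58.1 (R 4.3.3), 4 groups without a block, in regions with a peak in all 8 libraries, with Benjamini-Hochberg adjustment over all regions and a threshold of 0.05. Single values were compared with exact permutation tests in Python 3.11.15. Code was tested on simulated data. Sequences came from GRCm38, gene positions from RefSeq and features from GENCODE vM21. Members and lists were chosen with earlier results of these data known. Regions were named by rule: those with a peak in all 8 libraries, the highest start and other region of each cluster, those passing after centring, those without a 0 h peak, the 5 highest at 0 h only, and those with a DR5 motif. The regions described as counted again at 120 h and those of the comparison of 27 were chosen after their values were seen. Browser tracks were not used. Alternatives are in the closing section.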

Additional observations from a re-analysis of the deposited data

How the results depend on the processing

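The scale of the heights decided most calls. On the deposited scale 7 Hox regions were lower than at 0 h by 18 h, 7 by 48 h and 2 by 120 h. After median centring, quantile normalization, centring with a replicate block, and centring in the regions with a peak in the 4 libraries compared, 0 were lower at any of these times. With centring and the GC trend removed, 0 were lower at 18 and 48 h and 1 at 120 h, with or without a replicate block. At 120 h, 2943 and 2889 of all 15536 regions were lower in these 2 fits. With missing heights at the lowest summit value of the library, 60, 60 and 31 of 76 were lower at 18, 48 and 120 h, 2 were higher at 120 h, and 4 rose from 48 h to 120 h. Of all 61310 regions, 49951, 51415 and 42085 were lower at these times, 1497 were higher at 120 h, and 984 rose from 48 h. With missing heights filled and centring, 3, 1 and 5 were lower, 2, 3 and 8 were higher than at 0 h, and 1 was lower at 120 h than at 48 h. Of all regions, 646, 883 and 9427 were lower, 1672, 2178 and 3709 were higher, and 1617 were lower at 120 h than at 48 h. In the regions with a peak in the 4 libraries compared, 12 of 13 were lower at 18 h and 14 of 15 at 48 h, and after centring 1 was higher at 48 h and 8 at 120 h. Of all such regions, 21827 of 23578 were lower at 18 h and 20308 of 21730 at 48 h. After centring 1381 of 21730 were higher at 48 h and 4052 of 20285 at 120 h. After centring, with or without a replicate block, and with a replicate block after the GC trend was removed, 1 was higher at 120 h than at 0 h. The regions of the 4 libraries compared, and missing heights with centring, were alternatives chosen after seeing the data. From 48 h to 120 h, 0 rose with quantile normalization and 2 with the mean signal of the peak, beside 69 and 3150 of all 15536 regions.

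The Hoxa3 UTR region changed sign from -0.12 at 120 h against 0 h to 0.77 after centring. The latter held with or without a replicate block, and with missing heights filled. It was 0.72 after quantile normalization, 0.64 with the GC trend removed and 0.82 in the 4 libraries compared. Leaving out single libraries gave -0.63 to 0.39. The region upstream of Hoxc8 went to 0.01 with quantile normalization. Leaving out each library, with the lone library of a group assumed to vary like the other groups, gave 2 to 7 regions lower at 18 h, 3 to 7 at 48 h and 0 to 5 at 120 h, and 0 to 3 higher at 120 h than at 48 h. The replicate numbers share no litter or batch in the labels, and deviations of libraries with the same number correlated from -0.224 to 0.248. A replicate block alone left the counts at 7, 7 and 2 lower and 1 higher from 48 h.

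With the 24643 highest peaks of each library, the difference of 0 h minus later was -8.33 Hox peaks and -0.0338 percentage points in their share. The lowest summit value kept was then 105 and 115 at 0 h and 25 to 62 later, so these differences do not compare peaks of like height. Leaving out libraries gave differences of 51.3 to 60.3 peaks and 0.00687 to 0.0257 percentage points, and 0.0487 to 0.0654 for 120 h against the others. With equal numbers of peaks, 4 regions were counted at 0 h only and 2 at 0 and 120 h only, and 46.7%, 46.7% and 73.3% of those at 0 h were kept at 18, 48 and 120 h. With a peak in either replicate, 20 regions were counted at all 4 timepoints, and 31.1% and 34.0% were kept at 18 and 48 h. With peaks of at least 50, 11.3% and 12.9% were kept. Leaving out libraries gave 24 to 56 regions at 0 h only, 7 to 27 at 0 and 120 h only and 7 to 11 at all timepoints, and 14.9% to 38%, 17.2% to 35.2% and 32.2% to 64.8% kept.

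For genes at 0 h only, at 0 and 120 h only, and at all timepoints, the counts of 3, 6 and 24 became 9, 12 and 11 with peaks of at least 50, and 1, 3 and 14 with equal numbers of peaks. With a peak in either replicate, the first pair of counts were both 0. With peaks inside the gene or at its start, 8 genes were at 0 h only and 8 at all timepoints. Leaving out libraries gave 1 to 3, 3 to 7 and 24 to 25. Regions without a peak are below a limit of 24 or 25, so low regions of later libraries cannot be told from closed ones.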

Other observations

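Genes inside or beside the Hox clusters were examined by the same rule. Of 19 such genes, 13 matched the table and 3 (Skap2, Mtx2 and Smug1) had a peak at their start in all 8 libraries. Skap2, next to HoxA, had 294 and 482 at 0 h, 151 and 174 at 18 h, then 181 and 196 at 48 h, and 509 and 396 at 120 h. Smug1, next to HoxC, had 243 and 212 at 0 h, 66 and 83 at 18 h, then 55 and 51 at 48 h, and 172 and 121 at 120 h. At Skap2 the values of 120 h and 0 h overlapped, and at Smug1 they did not. All 3 starts were lower at 18 and 48 h than at 0 h by limma with Benjamini-Hochberg adjustment, as were 92.3% and 93.3% of all regions, and 1 at 120 h, where 44.8% were. After centring, 0 of the 3 passed at 18 or 48 h, and 1 was higher at 120 h, where 23.0% of all regions were. Evx2, a homeobox gene next to Hoxd13, had 84 and 83 at its start at 0 h, 54 in 48 h replicate 1, then 85 in 120 h replicate 1. Mir10b, inside HoxD, had calls at 0 h only, and Mir10a, inside HoxB, at 0 and 120 h.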
